A study of Mus musculus with 8 samples.

Results

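H19, Igf2 and 7 other imprinted growth genes (Igf2r, Grb10, Cdkn1c, Plagl1, Peg3, Slc38a4 and Mest) were followed in newborn mouse skin epithelium that overexpressed a miR-200 construct. The 9 genes were taken by symbol from 23433 counted symbols, and all 9 were among the 14176 that passed the filter on low counts. H19 and Igf2 were chosen by a measured value, their counts being lower in transgenic than in control cells of both populations, so those differences are given as descriptions without a test. The samples were 8 RNA-seq libraries from 4 pups at postnatal day 0.5, made from hair germ and interfollicular epidermis of each pup. In each of the 4 groups (population by genotype) there were 2 pups. Transgenic pups 4 and 6 carried pTRE2-200bcl, a doxycycline-responsive miR-200 construct, together with K14rtTA, the transactivator driven from the keratin 14 promoter of basal keratinocytes. Control pup 3 carried K14rtTA alone and control pup 5 carried pTRE2-200bcl alone, so the control arm held both single transgenes but in different animals. All pups were of mixed strain background, all dams ate doxycycline chow throughout gestation, and all sorted cells came through a K14RFP-positive, α6-high gate split by high (hair germ) or low (epidermis) P-cadherin.

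Imprinted genes are transcribed from only 1 parental copy, and many of them set the pace of fetal growth. Igf2 encodes a growth factor made from the paternal copy, and the neighbouring H19 encodes a noncoding RNA made from the maternal copy. The pair shares enhancers, and access to them is set by a control region between the genes that binds CTCF when it is unmethylated. Igf2r clears the growth factor, Grb10 restrains signalling by its receptors, Cdkn1c is an inhibitor of the cell cycle, and these 3 are mainly read from the maternal copy. Plagl1 and Peg3 encode zinc-finger proteins, Slc38a4 an amino acid transporter and Mest a hydrolase-like protein, all mainly read from the paternal copy. The counts did not separate parental copies, so which copy supplied each RNA was not measured.

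H19 (chr7:142575529-142578143, minus strand, a lincRNA) and Igf2 (chr7:142650766-142666816, minus strand, protein-coding) lie side by side in GRCm38. On the same chromosome lie Cdkn1c (chr7:143458339-143461050) and, at a distance, Peg3 (chr7:6703892-6730431). The others are Igf2r (chr17:12682406-12769664), Slc38a4 (chr15:96994820-97055956), Grb10 (chr11:11930508-12038683), Plagl1 (chr10:13060504-13131694) and Mest (chr6:30723547-30748465), by the GENCODE M21 annotation. The transgene makes miR-200 RNAs, so the mature 3p sequences of the family are shown, from RefSeq (GRCm38), with the seed (bases 2 to 8) in capitals. They fall into 2 seed groups, AAUACUG in miR-200b, miR-200c and miR-429 and AACACUG in miR-200a and miR-141.
miR-200b-3p: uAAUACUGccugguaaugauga
miR-200c-3p: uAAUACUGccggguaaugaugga
miR-429-3p: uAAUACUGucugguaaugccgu
miR-200a-3p: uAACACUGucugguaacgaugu
miR-141-3p: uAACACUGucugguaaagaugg
miR-675-5p: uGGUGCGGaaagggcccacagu
The miR-675-5p sequence is shown because its hairpin lies inside H19 (chr7:142577064-142577147). Mir675 had 0 counts in all 8 libraries.

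Matches to these seeds were searched in the longest annotated 3′UTR of each protein-coding gene, as CAGTATT (for AAUACUG) and CAGTGTT (for AACACUG) on the transcribed strand. Of 21022 genes, 25.8% held at least 1 of them in a 3′UTR (median length 961 bases). Igf2 held 1 match in 3050 bases, Igf2r 3 in 1304, Peg3 2 in 3614, Slc38a4 1 in 2170 and Mest 1 in 1296. Cdkn1c (688 bases), Grb10 (2955 bases) and Plagl1 (2590 bases) held none. H19 has no protein-coding 3′UTR and was not searched. The matches are shown in capitals, 1 line each, except that of a close pair in Igf2r (positions 982 and 999 of its 3′UTR) the first stands for both.
Igf2: tggacacccaccCAGTGTTaatatgcc
Peg3: ttgtgattaaaaCAGTGTTaaatagat
Peg3: ttgaataatcttCAGTGTTtgggtaac
Slc38a4: agacacactaccCAGTATTgtttgata
Igf2r: cttagtgagctgCAGTATTctattctt
Igf2r: aacgcggtgggcCAGTGTTggtgtagg
Mest: ttggcgtaaataCAGTGTTctgagtat
A match is a run of letters and not a measured site, and the level of a spliced RNA was the only readout here.

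The RefSeq promoter windows (250 bases before to 50 after a start, GRCm38) held 4 starts of Igf2. The window below, on the minus strand at chr7:142657447-142657746, is shown because it held 2 of the 3 GC boxes found in those 4 windows, here in capitals.
Igf2: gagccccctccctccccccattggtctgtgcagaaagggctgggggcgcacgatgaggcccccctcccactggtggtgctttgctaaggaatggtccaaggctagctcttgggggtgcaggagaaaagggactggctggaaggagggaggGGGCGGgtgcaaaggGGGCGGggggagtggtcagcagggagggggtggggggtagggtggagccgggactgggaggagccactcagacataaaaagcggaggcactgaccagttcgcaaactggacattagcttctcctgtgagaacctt
GC boxes were searched as GGGCGG on both strands and occurred in 35.7% of 32851 promoter windows. The E-box CAGGTG, the form bound by the ZEB repressors that miR-200 is known to target, was searched on both strands and occurred in 20.2% of windows. It was in the Igf2r window, in 2 of 3 Slc38a4 windows and 1 of 3 Mest windows, and in no window of Igf2, Peg3, Plagl1 or Grb10. TATAAA, on both strands, occurred in 13.6% of windows and among these genes in 1 Slc38a4 window. No promoter window of H19 or Cdkn1c was at hand, so neither was searched for these motifs.

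The libraries held 7109871 to 14039583 gene counts, and levels are given as CPM, counts scaled to TMM-adjusted library size, so that 3 counts equal 0.199 to 0.522 CPM. The feature miR200primary, the check of the transgene, had 2 to 31 counts in the control libraries and 4499 to 9449 in the transgenic ones. Rn45s took 30.6% of the epidermal counts of control pup 3 and 29.0% of those of transgenic pup 4, the highest shares of the 8 libraries. Pup 4 was the only pup with Y-linked counts above 4 (2156 and 1535) and low Xist (44 and 62, against 18356 to 48347), so one transgenic pup was male and the others female. Basal keratinocyte markers were abundant in all libraries. Cdh3, the P-cadherin gene of the sort, was higher in hair germ than in epidermis of the same pup in all 4 pups, at 353 against 293 and 436 against 386 CPM in controls and 421 against 281 and 576 against 309 CPM in transgenics. Muscle markers, which would mark a tissue rich in H19 and Igf2, summed to 0.727 to 3.78 CPM over 8 genes.

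H19 was one of the most abundant RNAs of control epithelium and was much scarcer in transgenic cells. In control hair germ it measured 3507 CPM in pup 3 and 3905 CPM in pup 5, and in transgenic hair germ 655 CPM in pup 4 and 350 CPM in pup 6. In control epidermis it measured 4410 and 13115 CPM in pups 3 and 5, and in transgenic epidermis 890 and 1309 CPM in pups 4 and 6. Every control library was above every transgenic library, and the control epidermis of pup 5 stood 2.97-fold above that of pup 3. By mean CPM, H19 ranked 8 of the 14176 tested genes in control hair germ and 6 in control epidermis, and 169 and 54 in the transgenic groups. As a share of all gene counts it fell between 0.343% and 1.26% in controls and between 0.0406% and 0.148% in transgenics. The edgeR log2 difference, transgenic minus control, was −2.88 (SE 0.48) in hair germ and −2.99 (SE 0.48) in epidermis, or 7.37-fold and 7.97-fold higher in controls. Without control pup 5 the epidermal value was −2.00, without control pup 3 it was −3.51, and without transgenic pup 4 the hair germ value was −3.44.

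Igf2 followed the same order of groups as H19. Its level in control hair germ was 357 CPM in pup 3 and 194 CPM in pup 5, against 62.2 CPM in pup 4 and 22.2 CPM in pup 6 of the transgenic hair germ. In epidermis the controls were close together at 792 and 740 CPM, and so were the transgenics at 140 and 124 CPM. No transgenic library overlapped a control library of its population, and the lowest control value overall (194 CPM, hair germ) was above the highest transgenic value (140 CPM, epidermis). The log2 difference was −2.69 (SE 0.41) in hair germ and −2.54 (SE 0.40) in epidermis, or 6.46-fold and 5.80-fold higher in controls. The hair germ value was −3.66 without transgenic pup 4, −2.16 without transgenic pup 6 and −2.23 without control pup 3. In sorted bulk RNA, fewer cells that make an RNA and less of it per cell cannot be told apart.

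**Figure D1:**
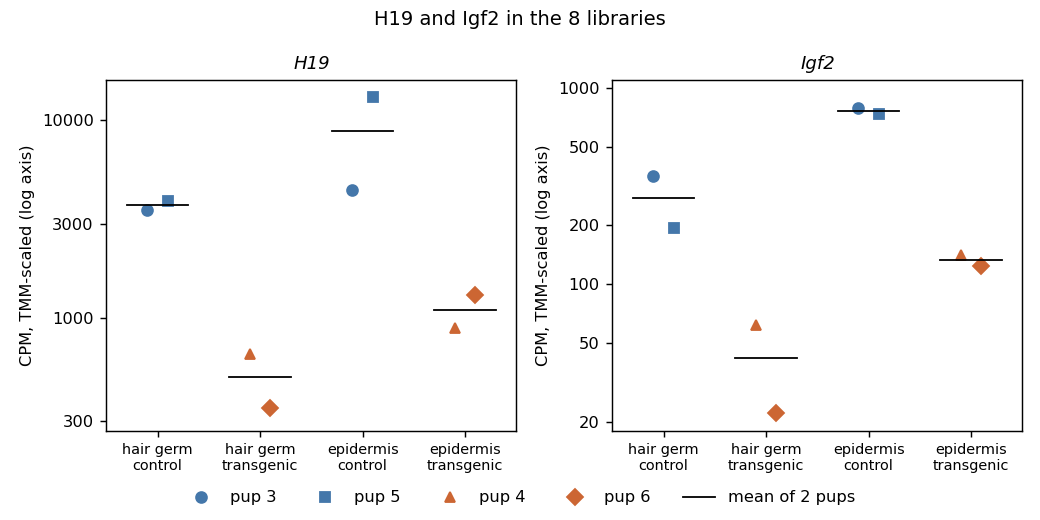
Level of H19 (left) and Igf2 (right) in each of the 8 libraries, in CPM on a log axis, with 1 point per pup and a line at the mean of 2 pups. For both genes the order from high to low was control epidermis, control hair germ, transgenic epidermis and transgenic hair germ, with H19 from 13115 to 350 CPM and Igf2 from 792 to 22.2 CPM.

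The summed level of basal keratinocyte markers was itself lower in transgenic cells, so both genes were also set against it. The 8 basal markers (Krt14, Krt5, Trp63, Itga6, Itgb4, Col17a1, Krt15 and Lamb3) summed to 26106 to 35929 CPM in controls and 16497 to 21238 CPM in transgenics. Of the 8, 6 fell in transgenic epidermis by edgeR (1, Krt15, without any 1 of the 4 transgenic libraries, 4 without epidermal control pup 3 and 3 without pup 5, 1 with library size alone and 8 by DESeq2 or limma-voom). In hair germ 0 passed (2 at an unadjusted p under 0.05, 3 by DESeq2 and 0 by limma-voom). Of all tested genes 1.35% fell in epidermis by edgeR and 0.190% in hair germ, where 17.1% had an unadjusted p under 0.05. Per 1000 basal marker counts, hair germ held 115 and 150 counts of H19 in controls and 30.8 and 20.3 in transgenics. In epidermis the H19 ratio was 131 and 365 in controls and 54.0 and 78.5 in transgenics. The Igf2 ratio was 11.7 and 7.42 against 2.93 and 1.29 in hair germ, and 23.6 and 20.6 against 8.50 and 7.45 in epidermis. The arms did not overlap for either gene on this scale, a description that carries the choice of both genes for lower transgenic counts. Fibroblast markers, summed over 10 genes of which 2 to 5 were at 0 in a library (Twist2 in all), were 1450 to 2139 CPM in control and 1457 to 1931 CPM in transgenic hair germ, and 1251 to 1369 against 681 to 889 CPM in epidermis. Most of that sum was Fn1 (199 to 1364 CPM) and Postn, while Col1a2 stood at 4.59 to 43.4 CPM, Col1a1 at 0.0879 to 7.04 CPM and Pdgfra at 0 to 2.46 CPM. Postn, a matrix protein gene, was the 1 fibroblast marker that passed the test, at 1156 and 988 CPM in control and 408 and 489 CPM in transgenic epidermis (log2 −1.26, adjusted p = 0.00820, edgeR), a call lost with library size alone or without the epidermis of control pup 3 or transgenic pup 4. Endothelial markers summed to 0.0849 to 15.5 CPM over 7 genes. Immune markers summed to 49.4 to 169 CPM in controls, 206 to 305 CPM in transgenic hair germ and 2260 to 2782 CPM in transgenic epidermis. Melanocyte markers summed to 18.9 to 31.7 CPM in controls and 96.7 to 176 CPM in transgenics. The part of these other cell types in the epidermal differences was not tested.

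H19 and Igf2 did not stand in a fixed ratio. Within 3 of the 4 groups the pup with more H19 had less Igf2, the exception being transgenic hair germ. Pearson's r of their log2 CPM over all 8 libraries was 0.926, a value that carries the choice of both genes for lower transgenic counts. Per 100 H19 counts there were 10.2 and 4.96 Igf2 counts in the hair germ of control pups 3 and 5 and 18.0 and 5.64 in their epidermis. The transgenic pups 4 and 6 had 9.50 and 6.33 in hair germ and 15.7 and 9.49 in epidermis. In both populations the transgenic ratios lay inside the range of the controls. In each pup the ratio was higher in epidermis than in hair germ, and in each genotype the pup with the higher ratio was the same in both populations. The epidermal libraries of pups 3 and 4, which had the highest ratios, were also those rich in Rn45s, whose part in the ratio was not tested.

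Neither restraint on the growth factor that was read from the maternal copy passed the test. Igf2r, which delivers the growth factor to lysosomes, measured 187 and 223 CPM in control and 206 and 223 CPM in transgenic hair germ, which overlapped. In epidermis it measured 194 and 194 CPM in controls and 135 and 149 CPM in transgenics, without overlap (log2 difference −0.45, SE 0.20, adjusted p = 0.261, edgeR). Per 1000 basal marker counts, epidermal Igf2r was instead higher in transgenics, at 5.77 and 5.41 in controls and 8.21 and 8.95 in transgenics, which was not tested. Grb10 overlapped in both populations, at 20.1 to 33.0 CPM in control and 22.3 to 33.4 CPM in transgenic hair germ, and at 24.4 to 27.5 and 24.1 to 28.0 CPM in epidermis. Airn, the antisense RNA across Igf2r, measured 2.64 to 17.6 CPM. No source used here says whether counting used the strand, so reads from Igf2r and Airn, which overlap, cannot be told apart.

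Cdkn1c, the cell cycle inhibitor, was scarce in all groups and lower in transgenic cells in each population. It measured 19.9 and 9.83 CPM (227 and 148 counts) in control and 0.880 and 5.82 CPM (10 and 48 counts) in transgenic hair germ. In epidermis it measured 7.66 and 6.11 CPM in controls and 1.48 and 2.12 CPM in transgenics. The arms did not overlap, but the spread was wide, and the test was not passed (log2 difference −2.25, SE 0.75, adjusted p = 0.163 in hair germ, and −1.85, SE 0.89, adjusted p = 0.318 in epidermis). The hair germ value moved with either transgenic library, to −4.07 without transgenic pup 6 and −1.38 without transgenic pup 4.

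Among the paternally read genes, Peg3 and Slc38a4 fell in transgenic epidermis. Peg3 measured 500 and 818 CPM in control and 256 and 279 CPM in transgenic epidermis (log2 difference −1.30, SE 0.25, adjusted p = 0.00803, edgeR). Slc38a4 was tighter, at 301 and 292 CPM in control and 170 and 181 CPM in transgenic epidermis (log2 difference −0.76, SE 0.18, adjusted p = 0.0307, edgeR). These were 2 calls among the 7 genes other than H19 and Igf2, where 6.34% of all tested genes passed in either direction and 1.35% in the lower one. In this population 5 of the 7 lay below the controls without overlap, as did 25.0% of all tested genes. Relative to the basal markers the picture differed, since Peg3 per 1000 basal counts was 14.9 and 22.8 in controls and 15.5 and 16.8 in transgenics, and Slc38a4 was 8.96 and 8.12 against 10.3 and 10.8. On that scale Peg3 overlapped and Slc38a4 was higher in transgenic epidermis, and neither was tested. The Peg3 call held in 13 of 18 alternative settings and was lost without control pup 5 (adjusted p = 0.0735), transgenic pup 4 (0.103) or transgenic pup 6 (0.0619) of the epidermis. The Slc38a4 call held in 8 of 18, and was lost without epidermal control pup 3 (0.151) or 5 (0.129), epidermal transgenic pup 4 (0.411) or 6 (0.280), or hair germ transgenic pup 4 (0.0645) or 6 (0.0652).

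In hair germ 0 of the same 7 genes passed edgeR's test, by DESeq2 and limma-voom likewise, and 2 (Peg3 and Cdkn1c) had an unadjusted p under 0.05. Of all tested genes 0.952% passed there and 17.1% had an unadjusted p under 0.05. Peg3 measured 551 and 685 CPM in control and 414 and 370 CPM in transgenic hair germ (log2 difference −0.66, SE 0.24, adjusted p = 0.196). Slc38a4 measured 223 and 220 CPM against 177 and 183 CPM (log2 difference −0.30, SE 0.18, adjusted p = 0.438). Both lay below the controls without overlap, as did 4 of the 7 genes and 16.9% of all tested genes.

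Plagl1, whose protein is a known activator of the H19 and Igf2 enhancers, overlapped between arms in hair germ, with 40.9 and 56.3 CPM in controls and 28.3 and 49.9 CPM in transgenics (log2 difference −0.32, SE 0.33, adjusted p = 0.655). In epidermis it measured 85.0 and 62.7 CPM in controls and 39.7 and 31.8 CPM in transgenics, without overlap (log2 difference −1.05, SE 0.33, adjusted p = 0.0936, or 0.0444 with epidermis fitted alone). Per 1000 basal marker counts, epidermal Plagl1 overlapped, at 2.53 and 1.75 in controls and 2.40 and 1.91 in transgenics. Mest was near the limit of counting. It had 1 and 48 counts in control hair germ, 11 and 0 in control epidermis and 0 in all 4 transgenic libraries. Against a floor of 3 counts over the group, it was at least 12.1-fold higher in control than transgenic hair germ, with 48 of 49 counts in pup 5, and at least 4.32-fold higher in control epidermis, with all 11 counts in pup 3. A single library therefore carried each Mest difference (adjusted p = 0.358 in hair germ and 0.669 in epidermis).

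**Figure D2:**
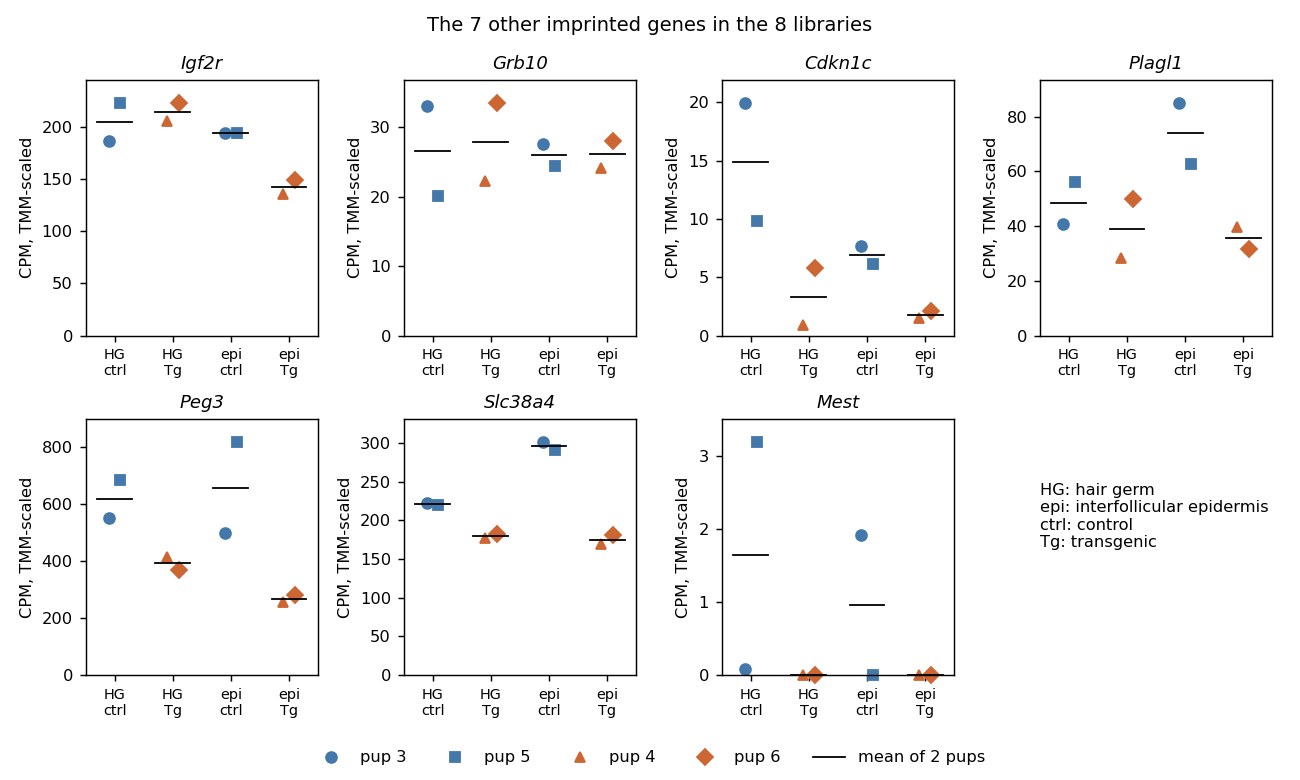
Level of the 7 other imprinted genes in each library, in CPM on linear axes from 0, with 1 point per pup and a line at the mean of 2 pups. Peg3 and Slc38a4 lay below the controls in both transgenic groups, but passed the test in epidermis alone. Grb10 overlapped in all 4 groups between 20.1 and 33.4 CPM, and Mest had 0 counts in the transgenic libraries.

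The difference between arms was also compared between the populations, as the hair germ log2 difference minus the epidermal one. For H19 it was 0.11 (SE 0.63) and for Igf2 −0.16 (SE 0.54), given as descriptions. Without epidermal control pup 5 the H19 value was −0.89, and without hair germ transgenic pup 4 the Igf2 value was −1.16. For the others it was 0.64 for Peg3 (adjusted p = 0.697), 0.46 for Slc38a4 (0.732), 0.51 for Igf2r (0.702) and 0.73 for Plagl1 (0.786). By edgeR 0 of the 7 passed, by DESeq2 and limma-voom likewise, and 0 had an unadjusted p under 0.05, where 0.134% of all tested genes passed and 8.11% had such a p. So the epidermal calls of Peg3 and Slc38a4 were not shown to differ from the hair germ, and the 95% interval of the Peg3 difference ran from −0.10 to 1.39. With the pup as a block 86 genes passed in place of 19, and none of the 7 was among them.

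**Figure D3:**
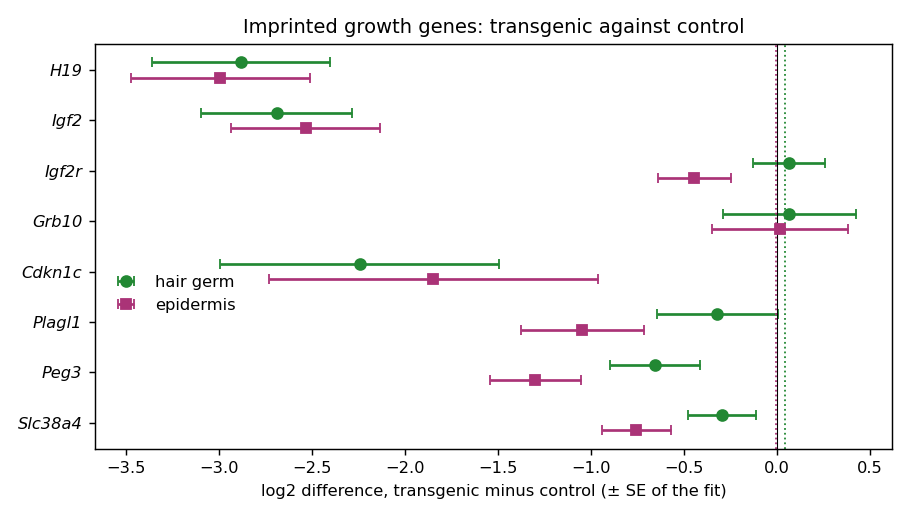
Fitted log2 difference, transgenic minus control, of 8 of the genes in hair germ (circles) and epidermis (squares), with bars of ± SE of the fit and dotted lines at the median of all tested genes. H19 and Igf2 lie between −2.99 and −2.54, the Cdkn1c bars are the widest, and Mest is left out because its transgenic groups had 0 counts.

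Hair germ and epidermis of the same pups gave a comparison that played no part in choosing the genes. Igf2 was lower in hair germ than in epidermis in all 4 pups, at 357 against 792, 194 against 740, 62.2 against 140 and 22.2 against 124 CPM. In transgenics this difference passed edgeR's test (log2 −1.63, SE 0.40, adjusted p = 0.0387), the only call among the 9 genes, where 4.62% of all tested genes passed. In controls it was −1.48 (SE 0.38, adjusted p = 0.395) and 0 of the 9 passed, where 0.00705% of tested genes passed, 3 of the 9 had an unadjusted p under 0.05 (8.47% of all tested genes), limma-voom passed 0, and DESeq2 passed Igf2 alone (adjusted p = 0.0249). H19 was likewise lower in hair germ in all 4 pups, with log2 differences of −1.24 (SE 0.45, adjusted p = 0.535) in controls and −1.13 (SE 0.45, adjusted p = 0.199) in transgenics. The control value of H19 was −0.25 without the epidermis of pup 5, and its transgenic value passed in that fit alone (adjusted p = 0.0469).

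The transgenic Igf2 call held in 12 of 18 settings. It was lost without hair germ transgenic pup 6 (adjusted p = 0.226), epidermal transgenic pup 4 (0.163) or epidermal transgenic pup 6 (0.0777). With the pup as a block, 1018 genes in place of 655 passed in transgenics and 7 in place of 1 in controls. In transgenics Igf2r (log2 0.59, adjusted p = 0.121) and Peg3 (log2 0.55, adjusted p = 0.249) were higher in hair germ without overlap. So were 26.4% of all tested genes. Slc38a4 (log2 −0.42, adjusted p = 0.579) and Plagl1 (log2 −0.60, adjusted p = 0.632) were lower in control hair germ, and Cdkn1c was higher there (log2 1.12, adjusted p = 0.666). None of these passed the test. Per kilobase of annotated exon, H19 stood far above the rest at 1507 CPM in control hair germ and 3562 CPM in control epidermis. In control hair germ Slc38a4 (52.0), Igf2 (48.1) and Peg3 (46.4) came next, in an order that Igf2 overlapped on both sides, and then Igf2r (22.0). In control epidermis Igf2 (134) came next, then Slc38a4 (69.6), Peg3 (49.4) and Igf2r (20.9), without overlap between neighbours. In transgenics Igf2 stood at 7.37 and 23.1 CPM per kilobase, below Slc38a4 (42.3 and 41.1) in both populations.

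Other imprinted genes were read as 2 lists, by the parental copy known to be expressed. Of 21 further genes known to be read mainly from the paternal copy 14 were tested, and 0 passed in hair germ (3 at an unadjusted p under 0.05) or epidermis (0 at an unadjusted p under 0.05), nor in any of 18 alternative settings. Of all tested genes 0.952% and 6.34% passed, and 17.1% and 17.3% had such a p. With shares this low, 0 calls among 14 genes cannot tell whether the list moved. Their median log2 difference was 0.57 in hair germ and 0.27 in epidermis, beside 0.04 and −0.01 over all tested genes. Kcnq1ot1, a noncoding RNA of the same chromosome with 93092 annotated exon bases, measured 900 to 1289 CPM in control and 808 to 970 CPM in transgenic libraries. It lies within Kcnq1 on the opposite strand, and with the strand setting unknown their reads cannot be told apart. A second list held 20 genes read from the maternal copy in at least some tissues, and whether that held in these cells was not measured. Of these genes 13 were tested, and 0 passed in either population (2 and 4 at an unadjusted p under 0.05), with medians of −0.21 and −0.50. In hair germ 8 of the 13 had a log2 difference below 0, and in epidermis 7. Whether either list moved as a group was not tested. In epidermis 6 of the 18 alternative settings passed 1 to 3 of them, drawn from Dcn, H13 and Ppp1r9a. Gnas, which encodes the stimulatory G protein subunit, measured 359 to 487 CPM in control and 378 to 491 CPM in transgenic libraries. Dcn, the proteoglycan decorin, measured 123 and 290 against 48.7 and 88.1 CPM in hair germ and 69.3 and 234 against 32.8 and 52.1 CPM in epidermis. The Dcn arms did not overlap (log2 −1.60, adjusted p = 0.159, and −1.84, adjusted p = 0.0690), and DESeq2 passed Dcn in both populations and Rian, which had 0 counts in control hair germ, in hair germ.

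**Figure D4:**
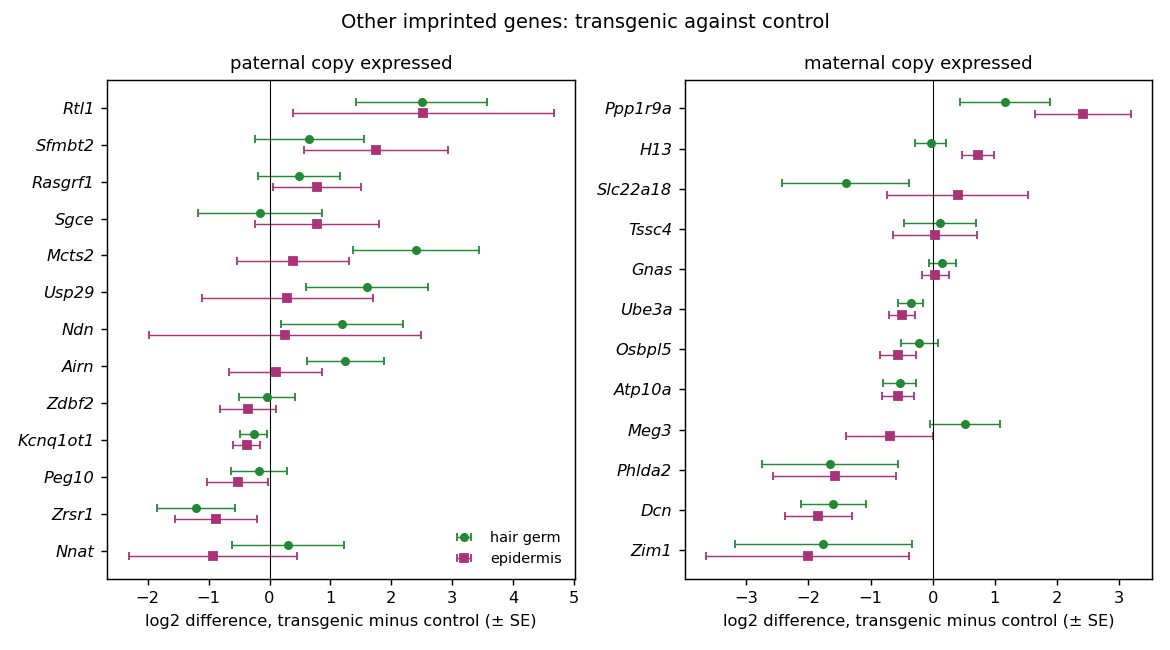
Fitted log2 difference, transgenic minus control, of 13 further imprinted genes listed as paternally read (left) and 12 listed as maternally read (right). All had counts in every group, and are shown in hair germ (circles) and epidermis (squares) with ± SE. The genes scatter to both sides of 0, with medians over the tested genes of 0.57 and 0.27 on the left and −0.21 and −0.50 on the right, and none passed the test.

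Of 19 further genes of insulin-like growth factor signalling 17 were tested. In transgenic epidermis 2 fell and 0 rose (1.35% and 4.99% of all tested genes), and in hair germ 0 passed by edgeR or limma-voom (7 at an unadjusted p under 0.05, as had 17.1% of all tested genes) and 2 by DESeq2, Igf1r and Igfbp3. Igfbp3, which binds the growth factors outside the cell, measured 104 and 72.7 CPM in control and 41.1 and 37.7 CPM in transgenic epidermis (log2 −1.16, adjusted p = 0.0260). In hair germ it lay the other way, at 50.2 and 35.0 CPM in controls and 91.4 and 92.2 CPM in transgenics (log2 1.11, adjusted p = 0.0756). The difference between the populations was 2.27 (adjusted p = 0.0520, or 0.0137 with the pup as a block). It passed in 6 of 18 alternative settings. Irs1, the adaptor below the receptors, measured 428 and 286 CPM in control and 200 and 199 CPM in transgenic epidermis (log2 −0.84, adjusted p = 0.0484) and overlapped in hair germ. Among transgenics both were higher in hair germ than in epidermis (Igfbp3 log2 1.22, adjusted p = 0.0255, and Irs1 log2 1.31, adjusted p = 0.00640).

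The epidermal Igfbp3 call held in 10 of 18 settings and the Irs1 call in 4 of 18. Both epidermal calls were lost without either epidermal transgenic library (adjusted p from 0.198 to 0.357), either hair germ transgenic library (0.0567 to 0.107) or epidermal control pup 3 (0.234 and 0.400). The calls between populations of transgenics were lost without any 1 of the 4 transgenic libraries (0.126 to 0.261 for Igfbp3 and 0.0516 to 0.114 for Irs1). Igf1r, the receptor that transmits the signal of Igf2, measured 269 and 325 CPM in control and 457 and 489 CPM in transgenic hair germ (log2 0.67, adjusted p = 0.135), and overlapped in epidermis. Igf1, the related growth factor, was scarce, at 0.527 and 0 CPM in control and 6.69 and 0 CPM in transgenic hair germ. In epidermis it measured 3.31 and 1.19 CPM in controls and 27.1 and 9.45 CPM in transgenics, without overlap (log2 3.16, SE 1.06, adjusted p = 0.110), and with library size alone it was the 1 gene of the list that passed. Among 8 genes that act on Igf2 transcription or mRNA, 6 were tested and 0 passed in either population by edgeR, DESeq2 or limma-voom (2 and 1 at an unadjusted p under 0.05). Among 18 genes that keep imprints, 16 were tested and 0 passed by edgeR in either population (1 and 3 at an unadjusted p under 0.05), while DESeq2 passed Dnmt3b in hair germ. Of all tested genes 0.952% and 6.34% passed by edgeR in hair germ and epidermis, and 17.1% and 17.3% had such a p. Of the 16, 13 in hair germ and 12 in epidermis had a log2 difference below 0. Their medians were −0.19 and −0.29, beside 0.04 and −0.01 over all tested genes. Whether they moved together was not tested. Ctcf measured 105 to 144 CPM in control and 91.9 to 109 CPM in transgenic hair germ, which overlapped, and 89.2 to 110 against 69.7 to 84.0 CPM in epidermis (adjusted p = 0.524). Dnmt1, the maintenance methyltransferase, measured 398 to 481 against 372 to 377 CPM in hair germ (adjusted p = 0.567) and 326 to 355 against 226 to 243 CPM in epidermis (adjusted p = 0.141).

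Genes in the chromosome neighbourhood of H19 and Igf2 were also read as a list. Of 24 neighbours named from Ctsd to Osbpl5 16 were tested, counting Cdkn1c, and 0 passed in hair germ (2 at an unadjusted p under 0.05). Of all tested genes 0.952% passed in hair germ and 17.1% had such a p. There 12 of the 16 had a log2 difference below 0, with a median of −0.22 beside 0.04 over all tested genes. In epidermis 9 of the 16 did, with a median of −0.02 beside −0.01. Whether the neighbours moved together was not tested. In epidermis 2 rose and 0 fell, where 4.99% of all tested genes rose and 1.35% fell. Lsp1, a leukocyte actin-binding protein, measured 12.5 and 6.45 CPM in control and 184 and 210 CPM in transgenic epidermis (log2 4.44, adjusted p = 4.24e-05), where the leukocyte marker Ptprc went from 19.9 and 19.7 to 378 and 296 CPM. Ctsd, a lysosomal protease, measured 138 and 104 against 304 and 189 CPM (log2 1.03, adjusted p = 0.0431). The part of immune cells in these rises was not tested. The Ctsd call held in 8 of 18 settings and was lost without any 1 of 5 libraries, the epidermis of pups 3, 4 and 5 and the hair germ of pups 4 and 6 (adjusted p from 0.0611 to 0.622). Nctc1 and Th had 0 counts in all libraries.

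The genes whose levels ran most like H19 over the 8 libraries were Chmp1b (r = 0.981), Mef2a (0.979), Slc1a3 (0.979), Krt14 (0.970) and Dsg3 (0.963), by Pearson's r of log2 CPM among 10176 genes. Those most like Igf2 were H60c (0.981), Gstcd (0.972), Gmfb (0.971), Mob3b (0.959) and Gnai3 (0.957). H19 and Igf2 were chosen for lower transgenic counts, so genes picked for likeness to them carry that choice, and their differences are given as descriptions. They ran from −2.42 (Slc1a3) to −0.50 (Gstcd) in hair germ and from −2.53 (Slc1a3) to −0.43 (Gstcd) in epidermis. Slc1a3 and H60c (−2.11 and −1.95) had differences near those of H19 and Igf2. Among the other imprinted genes Slc38a4 had the highest r with H19 (0.864) and Igf2 (0.844), and Grb10 the lowest (−0.227 and −0.148). These r are descriptions over libraries that share pups and the 4 group levels.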

How the data were processed

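RNA counts were deposited as whole-number read counts per gene symbol, 1 file per library. Per the submitters' processing notes, TopHat, HTSeq and DESeq2 were used on mm10 (GRCm38), without versions or a strand setting. The deposited normalized matrix was not used. The 5 HTSeq summary lines were left out, and 23.4% to 42.4% of the recorded reads were assigned to genes. Genes were tested with edgeR 4.0.16 in R 4.3.3, with TMM scaling, filterByExpr by group, 4 group means over 8 libraries, glmQLFit with legacy set to FALSE, two-sided tests and Benjamini-Hochberg adjustment over 14176 genes at 0.05. The SE is the log2 difference over the square root of F. Alternatives used DESeq2 1.42.0, limma 3.58.1, other scalings and filters, and left-out libraries. Scripts were tested on simulated data.

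Same-numbered libraries of the 2 populations come from 1 animal, per the labels, so pups pair the populations but not the genotypes. A pup's deviations from its 2 group means correlated over tested genes at 0.117 (controls) and 0.0868 (transgenics). Over the 7365 more abundant of these genes the values were 0.394 and 0.191. Pups are the replicates. Floors cover counting error only. The interval of the Peg3 difference was built from the SE of the edgeR fit, which takes in the spread between pups.

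The genes and lists were chosen with earlier results of these data known. Named genes are the 9 genes, list members past the threshold in a transgenic comparison (at most 5 a list), the 5 genes most like H19 and the 5 most like Igf2 (mean log2 CPM of at least 2), and the sort and transgene checks. Other list members were named for their role with values seen.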

Additional observations from a re-analysis of the deposited data

Results flagged for a closer look

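Lsp1, which lies near H19, differed between the populations in its response. The log2 difference, transgenic minus control, was 1.01 in hair germ and 4.44 in epidermis, and the hair germ value minus the epidermal one was −3.43 (SE 0.45, adjusted p = 0.0312, edgeR interaction test). In hair germ it measured 14.3 and 11.2 CPM in controls and 26.9 and 24.1 CPM in transgenics. The call of the difference held in 8 of 18 alternative settings, with adjusted p from 5.24e-08 to 0.847. It was lost without epidermal control pup 5 (0.0686), hair germ transgenic pup 4 (0.0907) or 6 (0.248), or epidermal transgenic pup 4 (0.218) or 6 (0.0923). Immune marker sums, given with the report, moved with it, and their part was not tested.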

How the results depend on the processing

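Each comparison was recomputed under 18 alternative settings. H19 and Igf2 were lower in transgenics of both populations in all of them, with log2 differences from −3.44 to −2.53 (H19) and −3.66 to −2.16 (Igf2) in hair germ and from −3.51 to −2.00 and −2.61 to −2.38 in epidermis. Their difference of effects, near 0 as reported, ran from −0.89 to 0.63 (H19) and −1.16 to 0.34 (Igf2). Of the values of the other 7 genes that the report gives, 1 changed sign, Plagl1 in hair germ, at 0.016 without both libraries of pup 4. In transgenic epidermis the count among 7 genes, 2 as reported, was 0 with library size alone, 1 with no filter on low counts, 0 without both libraries of pup 4, 1 without the 2 Rn45s-rich libraries, and 0 to 2 when each replicate was left out. Between populations of controls the count among 9 genes, 0 as reported, was 1 with DESeq2. In transgenics the count, 1 as reported, was 0 with the edgeR legacy method, 0 without both libraries of pup 4, 0 without the Rn45s-rich libraries and 0 to 2 when each replicate was left out. With the pup as a replicate block the counts were 0 in controls, 1 in transgenics and 0 for the difference of effects, and beside the Igfbp3 difference and the counts over all genes already given the block changed no other call.

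Counts over all genes ranged from 1 to 648 in hair germ (135 as reported), 195 to 1277 in epidermis (899), 0 to 152 (1) and 0 to 1026 (655) between populations of controls and transgenics, and 0 to 192 (19) for the difference. Library size alone shifted the median log2 difference of all genes by 0.16 in epidermis and by 0.30 and 0.18 between populations. For Mest and Cdkn1c few counts limit the precision.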
